A study of Mus musculus with 9 samples.

Results

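The Rab family comprises the small GTPases that mark and move the membrane compartments of the cell. They were followed here through the genes whose symbol is Rab, a number and at most 1 further letter and digit, a rule that used no measured value. The table of sorted neutrophils held 35 such genes among 7197, and all 35 reached a mean of 10 normalized counts, the minimum for testing. Neutrophils of the bone marrow (CD45+, CD11b+, Ly6G+) came from mice aged 2 months, of the genotype Rragc+/+ (5 libraries) or RragcS74N/+ (4 libraries). RragcS74N/+ mice were made with Cas9 and carry the S74N substitution, which activates RagC, in 1 of their alleles of Rragc in every tissue, so the sorted cells and the animal around them share the edit, while Rragc+/+ mice carry none. RagC is a Rag GTPase of the lysosome that relays nutrient supply to mTORC1, and it belongs to another GTPase family than the Rabs. Libraries counted reads at the 3′ ends of transcripts, and a normalized count is a read count divided by one size factor per library. The question was whether transcripts of the granule, endosome and Golgi Rabs differed between these genotypes.

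A Rab is active with GTP bound and inactive with GDP bound. Guanine nucleotide exchange factors (GEFs) activate it, GTPase-activating proteins (GAPs) switch it off, and the active form recruits effectors such as tethers and motors. Rabs anchor in membranes through lipids attached to cysteines near the carboxyl terminus, and GDP dissociation inhibitors (GDIs) carry the inactive form between membranes. In neutrophils, Rab27a and its effectors bring granules to the plasma membrane, while Rab5 and Rab7 act in turn on maturing phagosomes and endosomes.

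The coding ends of the granule Rabs and of paralogs among the listed members are shown because lipid-bearing cysteines define a Rab and paralogs differ in these last codons. Each line gives the last 33 coding bases with the stop codon, 5′ to 3′, from GENCODE release M21 transcripts (GRCm38), with in-frame cysteine codons in capitals.
Rab27a: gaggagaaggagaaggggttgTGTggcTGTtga
Rab3d: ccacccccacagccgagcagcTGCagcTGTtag
Rab37: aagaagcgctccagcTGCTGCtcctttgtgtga
Rab44: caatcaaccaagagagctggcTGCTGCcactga
Rab8a: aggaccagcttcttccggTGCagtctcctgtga
Rab8b: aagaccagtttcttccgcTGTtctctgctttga
Rab11a: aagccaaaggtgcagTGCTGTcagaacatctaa
Rab11b: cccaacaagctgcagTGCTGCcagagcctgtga
Rab1a: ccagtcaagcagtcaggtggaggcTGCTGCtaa
Rab1b: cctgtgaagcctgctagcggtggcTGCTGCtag
Rab5a: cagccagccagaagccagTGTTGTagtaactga
Rab5b: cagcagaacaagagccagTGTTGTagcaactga
All 35 genes had at least 1 cysteine codon among the last 10 codons before the stop, and 31 had at least 2. Rab8a and Rab8b were among the 4 with a single one.

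Promoters were searched for the hexamer CACGTG, the core of the element bound by TFEB, a lysosomal regulator that mTORC1 restrains, and by many other factors. RefSeq promoters (GRCm38.p6, 250 bases before to 50 after the start) matched 31 of the 35 genes by symbol. The hexamer, which reads alike on both strands, lay in 6 of the 37 promoters of these genes (16.2%), 1 promoter in each of 6 genes. It lay in 7.15% of all 32851 promoters searched. Those include promoters of genes not listed in these neutrophils, an unlike background, and the difference was not tested. The 6 Rab genes with it were Rab27a, Rab20, Rab21, Rab5a, Rab23 and Rab24. Their promoters with the hexamer are printed for the granule and endosome members, 5′ to 3′ on the gene's strand, with the hexamer in capitals.
Rab27a: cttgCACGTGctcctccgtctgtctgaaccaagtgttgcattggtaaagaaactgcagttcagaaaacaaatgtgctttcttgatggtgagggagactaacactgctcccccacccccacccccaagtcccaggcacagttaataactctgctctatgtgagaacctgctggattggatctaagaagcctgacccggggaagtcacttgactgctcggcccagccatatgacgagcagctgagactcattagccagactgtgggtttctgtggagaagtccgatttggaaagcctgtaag
Rab20: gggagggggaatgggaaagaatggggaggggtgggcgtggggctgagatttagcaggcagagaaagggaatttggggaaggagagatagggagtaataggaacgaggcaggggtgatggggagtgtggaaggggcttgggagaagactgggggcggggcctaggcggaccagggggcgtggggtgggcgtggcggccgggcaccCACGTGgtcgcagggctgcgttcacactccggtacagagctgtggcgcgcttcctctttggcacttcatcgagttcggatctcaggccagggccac
Rab21: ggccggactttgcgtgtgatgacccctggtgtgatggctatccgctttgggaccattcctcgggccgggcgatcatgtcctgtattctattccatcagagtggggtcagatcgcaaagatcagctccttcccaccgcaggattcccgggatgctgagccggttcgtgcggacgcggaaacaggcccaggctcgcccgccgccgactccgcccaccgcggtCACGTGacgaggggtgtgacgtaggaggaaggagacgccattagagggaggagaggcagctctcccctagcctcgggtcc
Rab5a: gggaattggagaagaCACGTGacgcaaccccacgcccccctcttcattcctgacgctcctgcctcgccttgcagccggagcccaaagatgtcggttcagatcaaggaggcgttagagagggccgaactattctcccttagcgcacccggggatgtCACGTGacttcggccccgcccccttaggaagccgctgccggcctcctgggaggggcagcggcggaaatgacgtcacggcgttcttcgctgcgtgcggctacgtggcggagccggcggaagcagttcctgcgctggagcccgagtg
The Rab27a window is chr9:73063898-73064197 (plus strand), with the hexamer from -246 to -241 relative to the start. The Rab20 window is chr8:11478591-11478890 (minus strand), with the hexamer from -46 to -41. The Rab21 window is chr10:115315542-115315841 (minus strand), with the hexamer from -30 to -25. The Rab5a window is chr17:53478984-53479283 (plus strand) and holds 2 matches, the first from -235 to -230. These are matches of letters and not measured sites of binding.

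The libraries held 1214295 to 1973957 recovered reads, and the Rab genes together took 0.536% to 0.703% of them. All 7 neutrophil markers were present, and Rragc+/+ replicate 2 stood apart from the other libraries, with the lowest mean Spearman correlation with them, 0.891, against 0.929 to 0.951 for the rest. That library also had the fewest recovered reads, 1214295. Of the 6 erythroid markers, 5 were listed, and their summed level ran from 1083 to 5506 normalized counts in Rragc+/+ and from 369 to 2092 in RragcS74N/+. All 5 were lower in RragcS74N/+ at an unadjusted p under 0.05 in limma and 0 passed after adjustment, and their part in the values below was not tested. The defining genes of platelets and of primary granules were not analysed here. Of the monocyte list 1 of 5 genes, Csf1r, was present, at 85.2 to 339 normalized counts in Rragc+/+ and 71.1 to 133 in RragcS74N/+. It was highest in Rragc+/+ replicate 2, with 189 in Rragc+/+ replicate 3 as the next value, and its part in the Rab values was not tested. The summed level of 3 of 5 eosinophil and basophil genes was 46.9 to 121 in Rragc+/+ and 51.7 to 206 in RragcS74N/+. Of these 3 genes, Prg2, which encodes an eosinophil granule protein, was higher in RragcS74N/+ at an unadjusted p of 0.0394 and an adjusted p of 0.713 in limma, with its highest values, 140.3 and 159, in RragcS74N/+ replicates 2 and 4, and its part in the Rab values was not tested. The T and NK cell list held 1 of 6 genes, at 14.5 to 28.9 and 14.6 to 18.8. All 8 genes of secondary and tertiary granules were listed, and 0 of them, of the neutrophil markers and of 4 immediate early genes had an unadjusted p under 0.05. Rab5a, Rab7 and Rab11b have a named pseudogene in the annotation, so that some of their reads may also align to it. Whether such reads were counted or left out was not followed here. In bulk RNA, fewer cells of a type and less RNA per cell cannot be told apart.

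Across the family, no Rab transcript passed a test of the difference between genotypes. With limma, 0 of 35 genes had a Benjamini-Hochberg adjusted p under 0.05 over the 6673 genes tested, where 0 genes in all passed. At an unadjusted p under 0.05 there were also 0 of 35 Rab genes, against 5.81% of all genes tested (2.01% higher and 3.81% lower in RragcS74N/+), and the smallest was 0.0669, for Rab8b. By edgeR's quasi-likelihood test and by DESeq2 on the recovered reads, 0 of 35 passed with or without adjustment, against 6.89% and 6.71% of all genes without it. The genotypes overlapped for each of the 35 genes, while 1.69% of all genes did not overlap. On log2(value + 1), the mean of 19 Rab genes was higher and that of 16 lower in RragcS74N/+. The median of the 35 log2 changes was 0.039 against 0.024 over all genes, and 46.6% of all genes were lower. All 35 intervals of the difference included 0, and in 33 of them a change of 1 on the log2 scale in either direction lay outside.

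**Figure D1:**
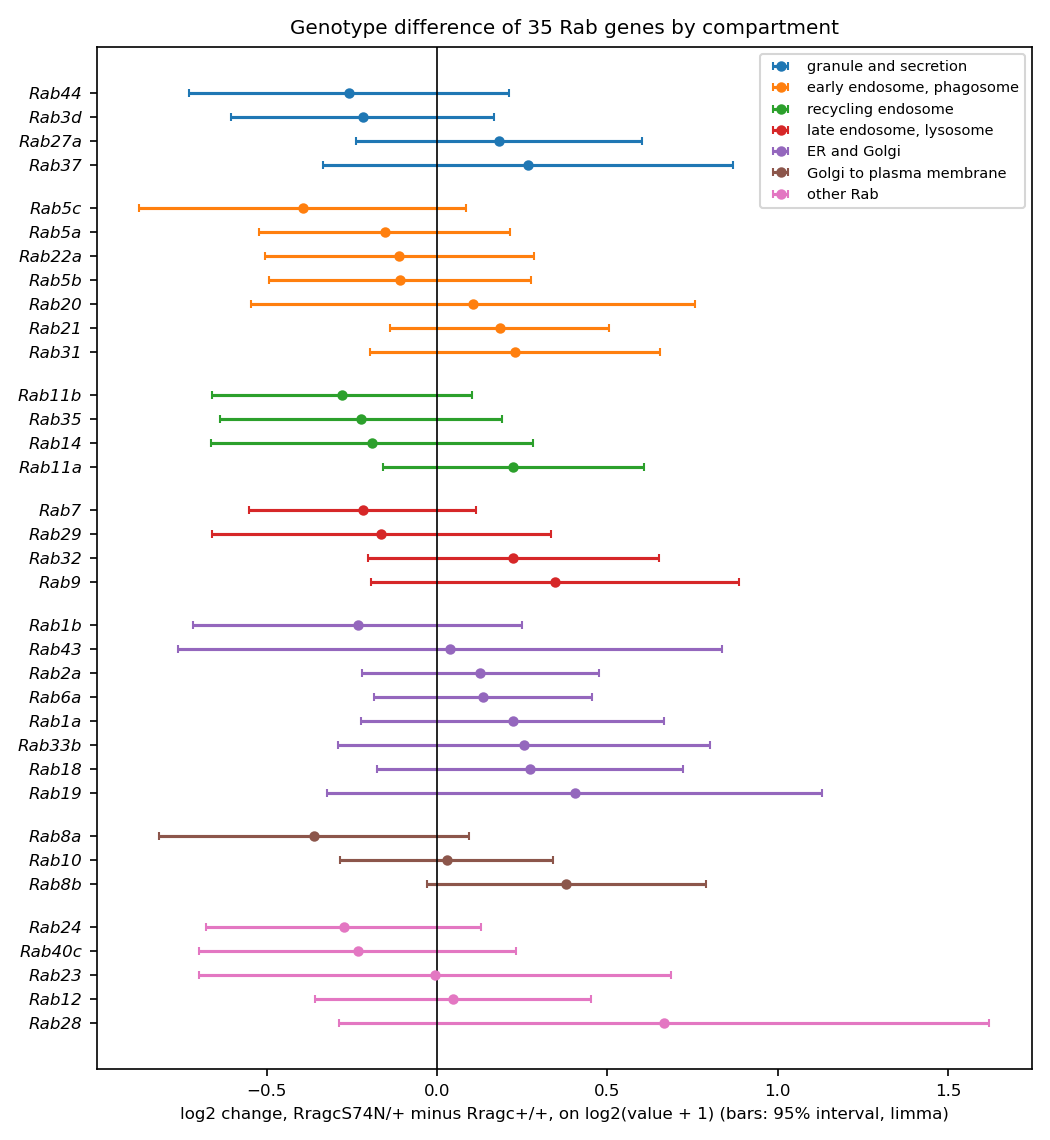
Genotype difference of each of the 35 Rab genes, grouped by compartment (y axis) and given as the log2 change, RragcS74N/+ minus Rragc+/+, on log2(value + 1) (x axis), with points for the limma estimate and bars for its 95% interval. Every bar crosses 0, and Rab28 has the widest.

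Granule and secretory Rabs were compared first. Rab27a, which docks secretory granules at the plasma membrane and whose loss causes Griscelli syndrome in humans, measured 281, 162, 201, 229 and 202 normalized counts in Rragc+/+ replicates 1 to 5 and 294, 278, 205 and 199 in RragcS74N/+ replicates 1 to 4. Its level ran over nearly the same range in both genotypes, with the lowest value in Rragc+/+ replicate 2. The means were 215 ± 44.0 (SD, n = 5) for Rragc+/+ against 244 ± 49.0 (SD, n = 4) for RragcS74N/+, and the log2 change was 0.18 (95% interval -0.24 to 0.60, limma adjusted p = 0.782). It was 0.085 without RragcS74N/+ replicate 1 and 0.087 without Rragc+/+ replicate 2.

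Rab3d, a Rab of secretory granules in exocrine and mast cells, measured 512, 718, 564, 568 and 419 normalized counts in Rragc+/+ replicates 1 to 5 and 402, 559, 495 and 441 in RragcS74N/+ replicates 1 to 4. Here Rragc+/+ replicate 2 was the highest of the 9 libraries, and RragcS74N/+ replicate 1 the lowest. The mean was 556 ± 108 (SD, n = 5) for Rragc+/+ against 474 ± 68.0 (SD, n = 4) for RragcS74N/+, with a log2 change of -0.22 (95% interval -0.60 to 0.17, limma adjusted p = 0.741), or -0.12 without Rragc+/+ replicate 2.

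Rab37, which is found on mast cell granules, was the scarcest of the granule members at 44.8, 18.7, 22.5, 18.5 and 18.1 normalized counts in Rragc+/+ replicates 1 to 5 and 22.5, 35.6, 26.4 and 28.2 in RragcS74N/+ replicates 1 to 4. Rragc+/+ replicate 1 was the highest, while the other 4 Rragc+/+ libraries lay at or below the lowest RragcS74N/+ value. The nearest were 22.49 in Rragc+/+ replicate 3 and 22.54 in RragcS74N/+ replicate 1, closer than the worth of 1 read in either library. Its log2 change was 0.27 (95% interval -0.33 to 0.87, limma adjusted p = 0.779). Without Rragc+/+ replicate 1 it was 0.50 (limma, unadjusted p = 0.0470, adjusted p = 0.4996), so this 1 library moved the difference by more than 1.5 times.

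Rab44, a large Rab of the granulocyte and mast cell lineages that has 725 codons in its GENCODE transcript against 221 for Rab27a, measured 86.3, 104, 62.8, 83.6 and 53.1 normalized counts in Rragc+/+ replicates 1 to 5 and 67.6, 62.0, 76.1 and 50.2 in RragcS74N/+ replicates 1 to 4. The genotypes overlapped through most of their range, and the log2 change was -0.26 (95% interval -0.73 to 0.21, limma adjusted p = 0.742). Of the 4 granule genes, 2 were thus above and 2 below 0, and the median log2 change of the list was -0.018. Rab27b, Rab3a, Rab3b, Rab3c and Rab26 were not analysed here.

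**Figure D2:**
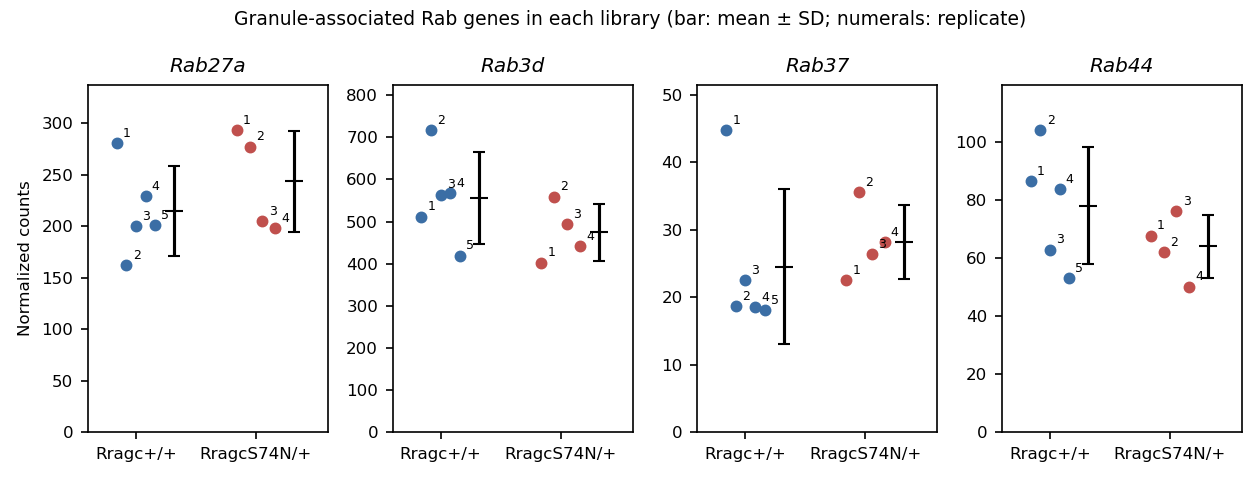
Normalized counts (y axis) of Rab27a, Rab3d, Rab37 and Rab44 in each library, by genotype (x axis), with replicate numerals beside the points and the mean ± SD at the right of each group. Points of both genotypes overlap in each panel, and Rragc+/+ replicate 1 stands at the top for Rab37.

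Early endosome and phagosome Rabs comprised 7 genes, of which 3 had a higher and 4 a lower mean in RragcS74N/+, with 0 past either threshold. Rab5c, one of the Rab5 proteins that fuse early endosomes, measured 514, 1025, 619, 569 and 410.1 normalized counts in Rragc+/+ replicates 1 to 5 and 444, 488, 476 and 413 in RragcS74N/+ replicates 1 to 4. Rragc+/+ replicate 2 held 1025 normalized counts, above every other library, and Rragc+/+ replicate 5 the lowest value. The log2 change was -0.39 (95% interval -0.87 to 0.086, limma adjusted p = 0.713), or -0.20 without Rragc+/+ replicate 2. Rab5a and Rab5b, which share the role of Rab5c, had log2 changes of -0.15 and -0.11, and Rab5b ranged from 167 to 271 in Rragc+/+ and 178 to 248 in RragcS74N/+.

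Rab21, an endosomal Rab that handles integrins and carries the hexamer CACGTG in its promoter, measured 425, 342, 401, 380.2 and 389 normalized counts in Rragc+/+ replicates 1 to 5 and 493, 472, 401 and 399 in RragcS74N/+ replicates 1 to 4. It was among the steadiest of the family, with RragcS74N/+ replicates 1 and 2 the highest, and its log2 change was 0.18 (95% interval -0.14 to 0.50, limma adjusted p = 0.741). Rab5a, whose promoter also holds the hexamer, measured 116, 152, 160.3, 129 and 114 normalized counts in Rragc+/+ replicates 1 to 5 and 139.9, 122, 110 and 109 in RragcS74N/+ replicates 1 to 4, with a log2 change of -0.15 (95% interval -0.52 to 0.22, limma adjusted p = 0.787). Rab24, a Rab linked to autophagy, was another such gene and measured 312, 515, 328, 383 and 318 normalized counts in Rragc+/+ replicates 1 to 5 and 371, 309, 258 and 278 in RragcS74N/+ replicates 1 to 4, with a log2 change of -0.27 (95% interval -0.68 to 0.13, limma adjusted p = 0.723). In both the genotypes overlapped, and the 6 genes with the hexamer had log2 changes on both sides of 0, from -0.27 to 0.18, with 0 calls.

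The remaining early members were Rab31, which serves traffic between the Golgi and endosomes, Rab22a, an endosomal recycling Rab, and Rab20, a Rab of maturing phagosomes. Rab31 ranged from 159 to 298 in Rragc+/+ and 219 to 322 in RragcS74N/+, with a log2 change of 0.23. Rab22a ranged from 48.7 to 71.3 in Rragc+/+ and 43.7 to 57.7 in RragcS74N/+, with a log2 change of -0.11. Rab20 ranged from 19.9 to 63.2 in Rragc+/+ and 29.2 to 52.0 in RragcS74N/+, and its log2 change of 0.11 became -0.12 without Rragc+/+ replicate 2. Each range of RragcS74N/+ overlapped that of Rragc+/+.

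Of the 4 recycling endosome genes, 1 was above and 3 below 0. Rab11a, a Rab that returns cargo from recycling endosomes to the surface, measured 601, 358, 405, 483 and 488 normalized counts in Rragc+/+ replicates 1 to 5 and 472, 566, 500.1 and 623 in RragcS74N/+ replicates 1 to 4. Its close relative Rab11b measured 418, 467, 419, 369.8 and 279 normalized counts in Rragc+/+ replicates 1 to 5 and 292, 308, 376 and 298 in RragcS74N/+ replicates 1 to 4. The log2 change was 0.22 (95% interval -0.16 to 0.61, limma adjusted p = 0.741) for Rab11a. For Rab11b it was -0.28 (95% interval -0.66 to 0.10, limma adjusted p = 0.713). For both genes the groups overlapped, and Rragc+/+ replicate 2 was the lowest library for Rab11a and the highest for Rab11b. Rab14, which works between the Golgi and endosomes, ranged from 287 to 553 in Rragc+/+ and 280.1 to 439.6 in RragcS74N/+ and had a log2 change of -0.19, or -0.057 without that library. Rab35, a Rab of fast recycling at the plasma membrane, ranged from 72.2 to 112 in Rragc+/+ and 65.0 to 99.4 in RragcS74N/+ and had a log2 change of -0.22.

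Late endosomal and lysosomal Rabs, the members nearest to the lysosomal surface where RagC acts, comprised 4 genes, with 2 above and 2 below 0. Rab7, which directs fusion of late endosomes with lysosomes, measured 485, 421, 388, 353 and 337 normalized counts in Rragc+/+ replicates 1 to 5 and 335, 336, 348 and 333 in RragcS74N/+ replicates 1 to 4. The 4 RragcS74N/+ libraries all lay between 333 and 348, while Rragc+/+ libraries spread from 337 to 485. The means were 397 ± 58.9 (SD, n = 5) for Rragc+/+ against 338 ± 6.75 (SD, n = 4) for RragcS74N/+, and the log2 change was -0.22 (95% interval -0.55 to 0.11, limma adjusted p = 0.724). Rab32, which serves lysosome-related organelles, ranged from 292 to 575 in Rragc+/+ and 385 to 473 in RragcS74N/+. Its log2 change of 0.22 became 0.39 (limma, unadjusted p = 0.0277, adjusted p = 0.4996) without Rragc+/+ replicate 1, the library with its highest value. Rab9, which returns receptors from late endosomes to the Golgi, ranged from 14.0 to 29.1 in Rragc+/+ and 21.2 to 32.4 in RragcS74N/+, with a log2 change of 0.35. Rab29, a lysosomal partner of the kinase LRRK2, ranged from 25.7 to 47.9 in Rragc+/+ and 29.5 to 47.5 in RragcS74N/+, with a log2 change of -0.16, or -0.33 without Rragc+/+ replicate 1, its lowest library.

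Among the 8 ER and Golgi Rabs, 7 had a higher mean in RragcS74N/+, so 12.5% were lower, against 46.6% of all genes. These genes share libraries and are no independent replicates, and Rragc+/+ replicate 2 was the lowest library for Rab1a, Rab2a, Rab6a and Rab18. The median log2 change of the 8 was 0.18 against 0.024 over all genes, or 0.13 against 0.017 without that library. With the trend of each library with 3′ GC content removed, the median of the 8 was 0.11. In that fit Rab6a came to -0.0067 and Rab1b to 0.030. Of the 8, 0 passed either threshold. Rab6a, which serves retrograde traffic at the Golgi, had the highest count of the family at 1136, 829.6, 1015, 1041 and 944 normalized counts in Rragc+/+ replicates 1 to 5 and 1024, 1173, 1047 and 1100 in RragcS74N/+ replicates 1 to 4. It varied little among libraries, with the lowest value in Rragc+/+ replicate 2, and the log2 change was 0.14 (95% interval -0.18 to 0.45, limma adjusted p = 0.784). Rab2a, which acts between the ER and Golgi, measured 394, 372, 409, 486 and 436 normalized counts in Rragc+/+ replicates 1 to 5 and 381, 499, 416 and 546 in RragcS74N/+ replicates 1 to 4. The RragcS74N/+ libraries held both the next to lowest and the highest value, and the log2 change was 0.13 (95% interval -0.22 to 0.48, limma adjusted p = 0.809). Rab18, a Rab of the ER and lipid droplets, measured 96.2, 65.4, 70.3, 82.0 and 104 normalized counts in Rragc+/+ replicates 1 to 5 and 98.1, 75.2, 98.7 and 136 in RragcS74N/+ replicates 1 to 4. RragcS74N/+ replicate 4 was its highest library, and the log2 change was 0.27 (95% interval -0.18 to 0.72, limma adjusted p = 0.734), or 0.13 without that library. The 1 gene below 0 was Rab1b, which drives transport from the ER to the Golgi together with Rab1a. Rab1b ranged from 91.2 to 185 in Rragc+/+ and 86.7 to 143 in RragcS74N/+, with a log2 change of -0.23. Rab1a ranged from 203 to 429 in Rragc+/+ and 310.3 to 387 in RragcS74N/+, with a log2 change of 0.22. Rragc+/+ replicate 2 was the highest library for Rab1b and the lowest for Rab1a, and the genotypes overlapped in both. Rab33b, a Golgi Rab linked to autophagy, ranged from 18.5 to 37.4 in Rragc+/+ and 22.6 to 37.6 in RragcS74N/+, with a log2 change of 0.26. Rab43, another Golgi Rab, and Rab19 were the scarcest members, with means of 10.9 and 10.2 normalized counts, and had log2 changes of 0.039 and 0.40. That of Rab43 changed sign in 4 of the fits without 1 library.

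The 3 Rabs that carry cargo from the Golgi to the plasma membrane included the smallest p of the family. Rab8b measured 189, 103, 169.6, 131 and 158 normalized counts in Rragc+/+ replicates 1 to 5 and 209.5, 179.9, 178 and 201 in RragcS74N/+ replicates 1 to 4. The lowest value was in Rragc+/+ replicate 2, and Rragc+/+ replicate 1 lay within the RragcS74N/+ range. The means were 150.2 ± 33.8 (SD, n = 5) for Rragc+/+ against 192 ± 15.6 (SD, n = 4) for RragcS74N/+, and the log2 change was 0.38 (95% interval -0.03 to 0.79, limma adjusted p = 0.713). Rab8a, its paralog in exocytosis, measured 673, 1121, 739, 765 and 500.3 normalized counts in Rragc+/+ replicates 1 to 5 and 481, 673, 618 and 532 in RragcS74N/+ replicates 1 to 4. There Rragc+/+ replicate 2 was the highest library and the log2 change was -0.36 (95% interval -0.82 to 0.094, limma adjusted p = 0.713). Without Rragc+/+ replicate 2 the log2 changes were 0.25 for Rab8b and -0.21 for Rab8a. Rab10, which brings glucose transporter vesicles to the surface, was the steadiest member, with a within-genotype SD of 0.11 on the log2 scale, and its log2 change was 0.028.

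Members outside these lists were Rab24 (above), Rab28, Rab40c, Rab12 and Rab23. Rab28, known from cilia of photoreceptors, measured 129.7, 17.5, 57.2, 61.9 and 107 normalized counts in Rragc+/+ replicates 1 to 5 and 78.2, 96.6, 82.8 and 149 in RragcS74N/+ replicates 1 to 4. Its values ran from 17.5 in Rragc+/+ replicate 2 to 149 in RragcS74N/+ replicate 4, the widest spread of the family, with a within-genotype SD of 0.88 on the log2 scale. The log2 change was 0.67 (95% interval -0.29 to 1.62, limma adjusted p = 0.718), and it was 0.23 without Rragc+/+ replicate 2. Rab40c, whose product joins a ubiquitin ligase, ranged from 41.1 to 63.1 in Rragc+/+ and 30.3 to 58.0 in RragcS74N/+, with a log2 change of -0.23. Rab12, which acts on recycling endosomes and lysosomes, ranged from 25.7 to 35.05 in Rragc+/+ and 30.3 to 36.1 in RragcS74N/+, with a log2 change of 0.046. Rab23, known as a regulator of Hedgehog signalling, ranged from 16.0 to 29.2 in Rragc+/+ and 10.4 to 35.8 in RragcS74N/+, with a log2 change of -0.006. All of these had overlapping genotypes. Over all 35 genes the median within-genotype SD was 0.30 on the log2 scale, against 0.36 over all genes tested.

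Single Rragc+/+ libraries decided whether any Rab gene passed the unadjusted threshold in limma. Without Rragc+/+ replicate 1, Rab8b, Rab28, Rab32 and Rab37 passed it with a higher level in RragcS74N/+, which is 4 of 35 or 11.4% against 9.64% of all genes in the same fit. Without Rragc+/+ replicate 5, Rab5c, Rab8a and Rab11b passed it with a lower level, which is 3 of 35 or 8.57% against 13.7% of all genes. With Rragc+/+ replicate 2 left out, 0 passed, against 3.01% of all genes. After adjustment 0 passed in each of these fits. Leaving out some 1 library moved the log2 change by more than 1.5 times in 33 of the 35 genes, all but Rab11b and Rab21, and Rragc+/+ replicate 2 did so in 23. This measure is relative to the change with all libraries, so small changes pass it readily. Its share over all genes was not computed, so these counts show nothing particular to the Rab genes.

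Paralogs of one number were then set against each other within each library. The ratio of Rab8a to Rab8b was 3.56, 10.9, 4.35, 5.84 and 3.16 in Rragc+/+ replicates 1 to 5 and 2.29, 3.74, 3.48 and 2.65 in RragcS74N/+ replicates 1 to 4. The highest ratio belonged to Rragc+/+ replicate 2 and the lowest to RragcS74N/+ replicate 1. The ratio of Rab11b to Rab11a was 0.694, 1.31, 1.03, 0.765 and 0.571 in Rragc+/+ replicates 1 to 5 and 0.619, 0.544, 0.751 and 0.478 in RragcS74N/+ replicates 1 to 4, so that Rab11b exceeded Rab11a in 2 Rragc+/+ libraries alone. The ratio of Rab1b to Rab1a was 0.296, 0.908, 0.502, 0.506 and 0.260 in Rragc+/+ replicates 1 to 5 and 0.462, 0.273, 0.396 and 0.224 in RragcS74N/+ replicates 1 to 4. That of Rab5c to Rab5a was 4.43, 6.75, 3.86, 4.40 and 3.59 in Rragc+/+ replicates 1 to 5 and 3.17, 4, 4.33 and 3.80 in RragcS74N/+ replicates 1 to 4. In each of these 4 ratios Rragc+/+ replicate 2 was the highest of the 9 libraries and the genotypes overlapped. The ratio of Rab5b to Rab5a went otherwise, at 2.34, 1.55, 1.52, 1.68 and 1.47 in Rragc+/+ replicates 1 to 5 and 1.27, 1.59, 2.25 and 2.01 in RragcS74N/+ replicates 1 to 4, with Rragc+/+ replicate 1 the highest. The mean log2 ratio in RragcS74N/+ minus that in Rragc+/+ was -0.74 for Rab8a to Rab8b, -0.50 for Rab11b to Rab11a, -0.46 for Rab1b to Rab1a, -0.24 for Rab5c to Rab5a and 0.046 for Rab5b to Rab5a. Without Rragc+/+ replicate 2 these were -0.46, -0.34, -0.20, -0.093 and 0.015. The ratio of Rab5c to Rab5b was 1.89, 4.36, 2.54, 2.61 and 2.45 in Rragc+/+ replicates 1 to 5. In RragcS74N/+ replicates 1 to 4 it was 2.5, 2.51, 1.92 and 1.89, and Rragc+/+ replicate 2 was again the highest. Its difference in mean log2 ratio was -0.29, or -0.11 without Rragc+/+ replicate 2. The pairs were set up after the values had been seen, so the ratios are given without a test.

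**Figure D3:**
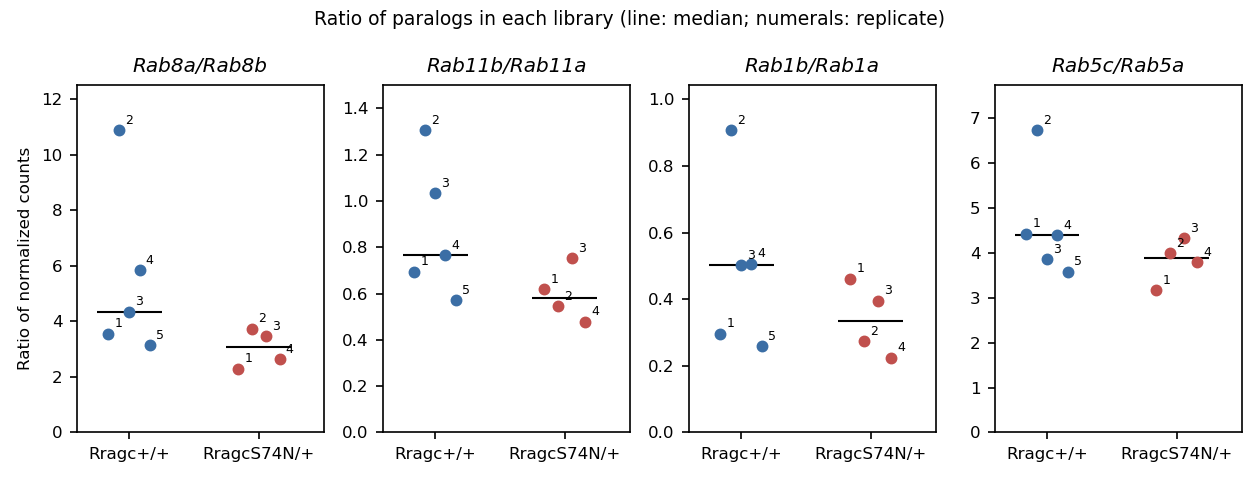
Ratio of the normalized counts of 4 pairs of Rab paralogs (y axis) in each library, by genotype (x axis), with replicate numerals beside the points and a line at the median of the group. Rragc+/+ replicate 2 is the highest point in each panel, at 10.9 for Rab8a to Rab8b, and the genotypes overlap in each.

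The first gene of each of these ratios had the transcript end of higher GC content, though Rab5c and Rab5b were close to each other. Over the last 500 bases of the GENCODE transcript, GC content was 49% for Rab8a and 38% for Rab8b, 45% for Rab11b and 34.2% for Rab11a, 55.6% for Rab1b and 32.4% for Rab1a, and 48% for Rab5c, 45.6% for Rab5b and 29.2% for Rab5a. Over the 35 genes, which share libraries and are no independent replicates, the deviation of a gene from its mean correlated with this GC content at Spearman coefficients from -0.30 (replicate 5) to 0.46 (replicate 2) in the Rragc+/+ libraries and from -0.42 to 0.085 in the RragcS74N/+ libraries, so that these ranges overlapped. Over all genes with a GC value the coefficients were 0.0604, 0.388, 0.255, 0.225 and -0.238 in Rragc+/+ replicates 1 to 5. They were -0.398, -0.199, -0.0249 and -0.236 in RragcS74N/+ replicates 1 to 4. The coefficient was thus negative in every RragcS74N/+ library but in Rragc+/+ only in replicate 5. The trend with GC content therefore ran largely along with genotype, and the cause of this was not tested. Rragc+/+ replicate 2 was the highest or the lowest of the 9 libraries for 24 of the 35 Rab genes (68.6%), against 49.7% of all genes tested. With the GC trend of each library removed, the log2 changes were -0.26 for Rab8a, 0.26 for Rab8b, -0.28 for Rab11b, 0.067 for Rab11a and -0.32 for Rab5c. Those of Rab1a and Rab1b came to 0.048 and 0.03, and Rab27a and Rab3d to 0.086 and -0.10. The sign was kept in each of these genes except Rab1b. Rab5a came to -0.36 (unadjusted p = 0.0750 in limma), which is below Rab5c, while before the removal Rab5c was the lower of this pair.

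**Figure D4:**
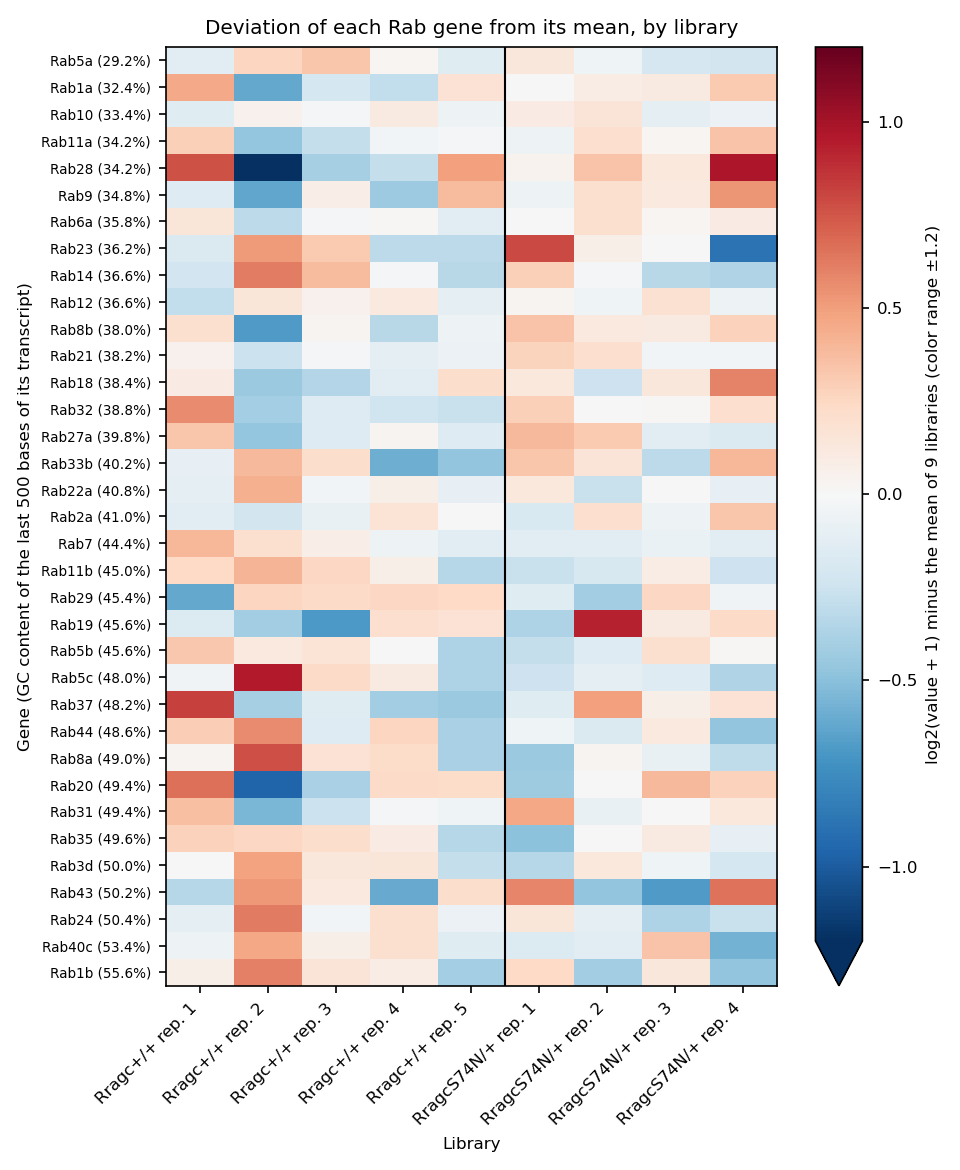
Deviation of each Rab gene from its mean over the 9 libraries, on log2(value + 1) (color), with libraries on the x axis and genes on the y axis ordered by the GC content of their transcript ends, lowest at the top. The column of Rragc+/+ replicate 2 holds the deepest color, Rab28, and is mostly blue among genes of low GC content and mostly red among those of high GC content. Rab28 lies below the color range there.

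Genes that act on or with Rabs were compared from 5 lists, of which 119 of 184 genes were tested. In limma, 0 of the 119 passed after adjustment over all genes, and 6 passed the unadjusted threshold (5.04%, against 5.81% of all genes), 3 higher and 3 lower in RragcS74N/+. The 40 tested effectors and the 8 genes of the GDI, escort and lipid attachment list had 0 each at that threshold, the 34 GEF genes had 2, the 20 GAP genes had 1 and the 17 granule docking and fusion genes had 3. The median log2 change of the 119 was -0.012, and of the docking and fusion list -0.12, or -0.042 without Rragc+/+ replicate 2.

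Of 4 partners of Rab27a in granule release, 0 passed the unadjusted threshold in limma. Unc13d, the Rab27a effector Munc13-4 that primes granules, measured 50.05, 57.3, 58.1, 45.8 and 56.1 normalized counts in Rragc+/+ replicates 1 to 5 and 59.7, 53.9, 51.2 and 63.8 in RragcS74N/+ replicates 1 to 4, with a log2 change of 0.094 (95% interval -0.27 to 0.46, limma adjusted p = 0.868). Stx11, a SNARE of cytotoxic and neutrophil granules, measured 535, 248.9, 342, 371 and 432 normalized counts in Rragc+/+ replicates 1 to 5 and 501, 453, 419 and 459 in RragcS74N/+ replicates 1 to 4, with a log2 change of 0.29 (95% interval -0.15 to 0.72, limma adjusted p = 0.724), or 0.14 without Rragc+/+ replicate 2. Stxbp2, the Munc18-2 protein that binds it, measured 381, 541, 357, 376 and 236 normalized counts in Rragc+/+ replicates 1 to 5 and 288, 279.6, 276 and 268 in RragcS74N/+ replicates 1 to 4. The RragcS74N/+ libraries lay between 268 and 288 and Rragc+/+ replicate 5 below all of them. Its log2 change was -0.40 (95% interval -0.84 to 0.045, limma adjusted p = 0.713). Without Rragc+/+ replicate 2, its highest library, the change was -0.25 (limma, unadjusted p = 0.175). Without Rragc+/+ replicate 5 it was -0.55 (limma, unadjusted p = 0.00654, adjusted p = 0.326). In that last fit 13.7% of all genes had an unadjusted p under 0.05. On the recovered reads of all libraries, Stxbp2 passed the unadjusted threshold with both edgeR and DESeq2, as did 6.89% and 6.71% of all genes. It passed the adjusted one with neither. Sytl1, another Rab27a effector, was near the minimum for testing at 5.93, 23.4, 19.7, 8.04 and 8.02 normalized counts in Rragc+/+ replicates 1 to 5 and 6.63, 11.2, 11.3 and 8.36 in RragcS74N/+ replicates 1 to 4. Its genotypes overlapped, and the log2 change of -0.28 became -0.032 without Rragc+/+ replicate 2, its highest library.

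The 6 partner genes under the unadjusted threshold each had an adjusted p of 0.713 in limma. Napg, the SNAP protein that takes spent SNARE complexes apart with NSF, measured 76.4, 56.1, 82.5, 61.9 and 73.2 normalized counts in Rragc+/+ replicates 1 to 5 and 98.1, 93.5, 83.6 and 88.8 in RragcS74N/+ replicates 1 to 4. Rabgap1l, a Rab GAP, measured 46.8, 25.7, 46.9, 49.8 and 39.1 normalized counts in Rragc+/+ replicates 1 to 5 and 84.2, 56.9, 51.2 and 52.2 in RragcS74N/+ replicates 1 to 4. For these 2 genes every RragcS74N/+ library lay above every Rragc+/+ library, as 1.69% of all genes did in either direction, and the log2 changes were 0.39 and 0.55. Napa, the related SNAP protein, measured 50.05, 45.6, 35.6, 44.2 and 27.1 normalized counts in Rragc+/+ replicates 1 to 5 and 27.9, 26.4, 27.9 and 27.2 in RragcS74N/+ replicates 1 to 4. Its log2 change was -0.52, and Rragc+/+ replicate 5 fell among the RragcS74N/+ values with 27.1. Trappc6b, a subunit of the TRAPP exchange factor for Rab1, measured 48.7, 30.4, 45.9, 37.0 and 63.2 normalized counts in Rragc+/+ replicates 1 to 5 and 70.3, 61.0, 58.8 and 62.7 in RragcS74N/+ replicates 1 to 4, with a log2 change of 0.52. Rin3, an exchange factor for Rab5, measured 121, 162, 156, 138 and 118 normalized counts in Rragc+/+ replicates 1 to 5 and 125, 94.5, 117 and 83.6 in RragcS74N/+ replicates 1 to 4, with a log2 change of -0.41. In both genes the genotypes overlapped by part of their range. Vamp2, a vesicle SNARE, measured 9.88, 43.2, 15.9, 8.04 and 14.0 normalized counts in Rragc+/+ replicates 1 to 5 and 6.63, 9.15, 9.04 and 4.18 in RragcS74N/+ replicates 1 to 4, and its log2 change of -1.02 became -0.66 without Rragc+/+ replicate 2, its highest library. Without that library none of the 6 genes passed, with unadjusted p from 0.0504 to 0.0856 in limma. Further single libraries whose removal ended a call, with unadjusted p of at most 0.134, were Rragc+/+ replicate 4 and each RragcS74N/+ library for Napg, Rragc+/+ replicate 5 and RragcS74N/+ replicates 1 and 2 for Rabgap1l, and Rragc+/+ replicates 1 and 4 and RragcS74N/+ replicates 2 and 4 for Napa. For Trappc6b they were Rragc+/+ replicate 4 and RragcS74N/+ replicates 1, 2 and 4, for Rin3 Rragc+/+ replicates 3 and 4 and RragcS74N/+ replicates 2 and 4, and for Vamp2 Rragc+/+ replicate 3 and RragcS74N/+ replicates 1 and 4.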

How the data were processed

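Neutrophils sorted from bone marrow were profiled with oligo-dT primed 3′-end libraries that carry molecular identifiers, in 5 Rragc+/+ and 4 RragcS74N/+ samples at 2 months of age. Per the study's methods and the submitters' processing notes, reads were aligned to GRCm39 by the authors using TopHat2 (2.0.10), and HTSeq (0.6.1) counted them by strand. The deposited signal is a read count per gene after division by a size factor of its library. The use of the identifiers and the filter on genes are not given in the sources used here. Reads that are not collapsed are not independent molecules. Because reads stem from transcript ends, counts were not divided by length. Reads with several alignments were allowed by TopHat2, and their treatment in counting is not given. In GENCODE M21, 12 Rab genes have a named pseudogene or a same-strand neighbour. Reads that could belong to either gene were not followed here, so these 12 are less certain.

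All values (100%, tolerance 0.001) were whole multiples of 1 read, and 0 columns lacked a sample. Replicates differed by more than sampling noise (chi-square per degree of freedom at least 5.47 over 16 pairs). The study describes the profiling by mouse, with 5 mice of each genotype, of which 4 RragcS74N/+ libraries were analysed here. The labels do not tie libraries to animals, so p-values measure the spread between these samples. Values were tested as log2(value + 1) with limma (3.58.1, R 4.3.3, trended moderation) for the 6673 genes with a mean of at least 10, with genotype as the one term and Benjamini-Hochberg adjustment at 0.05. This scale shrinks the fold changes of scarce transcripts. edgeR (4.0.16) and DESeq2 (1.42.0) were run on the recovered reads. Alternatives were pseudocounts of 0.5 and 5, no filter or a minimum mean of 50, 3 other scalings, moderation without a trend, array quality weights and the removal of each library. Removal, library by library, of the trend with 3′ GC content (last 500 bases, 7067 genes, lowess) was added after the data were seen. The procedure was tested on simulated data. The planted changes there were larger than that of any Rab gene, and no outlying library or GC trend was simulated. The simulation therefore cannot tell whether changes of the size seen here would be found.

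The members were set by their symbols alone, but the family, role lists, partner lists and markers were chosen with earlier results of these data known. Values in every sample were given for Rab27a, Rab3d and Rab37, the 6 members of highest mean, the member of lowest p in each of the 7 role lists, any member or partner under an unadjusted p of 0.05 or without overlap (at most 8 partners), and the Rab27a partners. Rab21, Rab24 and Rab5a were added for a promoter motif and Rab44 for its role after values were seen. No protein sequences were used here. Some marker genes and sequences are not reported here.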

Additional observations from a re-analysis of the deposited data

Results flagged for a closer look

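Among 90 sets of values, the 35 Rab genes and 10 partner genes in each genotype, 5 held 1 library at a distance from the rest of that genotype, where chance gives about 1 in 20, or 4.5. In Rragc+/+ replicate 1, Rab29 was low at 25.7 normalized counts against 46.9 to 47.9 in the other 4 libraries, a gap of 0.953 of the whole range. In the same library Rab32 was high at 575 against at most 347, a gap of 0.807. Rab37 was also high there, at 44.8 against at most 22.5, with a gap of 0.834. Rab7 was high in RragcS74N/+ replicate 3, at 348 against at most 336, a gap of 0.855 of a range that spans only 333 to 348. Vamp2 was high in Rragc+/+ replicate 2, at 43.2 against at most 15.9, with a gap of 0.776.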

How the results depend on the processing

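No paired analysis was possible because the numbers of the replicates were assigned here and name samples only. The counts of 0 Rab genes and 0 partner genes past the adjusted threshold held under each of the 20 other settings run and with the GC trend removed. The count of Rab genes at an unadjusted p under 0.05 spanned 0 to 4 when single libraries were removed (4 on removal of Rragc+/+ replicate 1, 3 on removal of Rragc+/+ replicate 5, 0 for the other 7) and was 0 otherwise. The median log2 change of the family was -0.11 over the 25 members whose mean reached 50, a smaller set, and spanned -0.022 to 0.073 on removal of single libraries. With the GC trend removed, signs turned for Rab6a (-0.0067), Rab10 (-0.14), Rab12 (-0.087), Rab1b (0.030) and Sytl1 (0.068). Rab23 turned to 0.0066 with a pseudocount of 5, 0.11 with edgeR and 0.12 with DESeq2, and Rab43 to -0.087 with quantile normalization and -0.094 with array quality weights. Without one library, the ranges were -0.017 to 0.072 for Rab10, -0.022 to 0.087 for Rab12, -0.12 to 0.28 for Rab20, -0.27 to 0.29 for Rab23 and -0.17 to 0.27 for Rab43. The cause was not tested. Rab19 and Rab43, with means under 11 normalized counts, are limited by depth.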
